A study of Rattus norvegicus with 24 samples.

Results

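The comparison described here is that of rat INS1 cells 24 h after doxycycline switched on a mouse IRE1α transgene with cells of the same line that were never induced. INS1 cells derive from a rat insulinoma and serve as a stand-in for pancreatic beta cells. The induced group received doxycycline and drug vehicle, and the uninduced group received vehicle without doxycycline, so the effect of doxycycline itself and that of the transgene cannot be told apart. Both groups carry the transgene, labelled IRE1alpha (Ern1), and each held 3 libraries, which makes 6 of the 24 libraries of the series. They were chosen by the title and the column name of each library, because the time characteristic of the 6 induced vehicle libraries, at 4 h and 24 h, contradicts both. The other libraries come from the same 2 groups at 4 h, and from induced cells given PAIR1 or KIRA9, modulators of the IRE1α kinase, at 4 h and 24 h.

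IRE1α sits in the membrane of the endoplasmic reticulum, senses unfolded protein in its lumen, and carries a kinase and an RNase on its cytosolic side. When the kinase domains pair up, the RNase cuts Xbp1 mRNA, which is then rejoined to encode the active transcription factor XBP1s, an inducer of chaperones and of secretory machinery. At stronger or longer activation the RNase also cuts other mRNAs at the endoplasmic reticulum, a process known as regulated IRE1-dependent decay. Beta cells make large amounts of proinsulin in this compartment, which is why the pathway is studied in them.

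Reads were counted per Ensembl gene ID, and 0 of the 26689 IDs could be paired with a gene symbol in the sources used here. The results therefore describe IDs and classes of IDs. The transgene, the targets of XBP1s and the markers of beta and other cells could not be looked up, so the labels were not checked against them. Library totals were 13.9 to 19.7 M counts in induced cells and 16.2 to 23.8 M in uninduced cells at 24 h, where 3 counts, the upper limit set by a count of 0, correspond to 0.152 to 0.216 CPM (counts per 1 M counts) in induced and 0.126 to 0.185 CPM in uninduced libraries. These limits cover counting error only. In bulk RNA, fewer cells expressing a gene and less RNA per cell cannot be told apart. Among the 6 libraries, induced replicates 1 and 2 and uninduced replicate 2 belong to a set of 6 in the series in which 32 IDs, chosen for being at least 2-fold above every other library, held 0.605 to 0.680% of counts, against 0.0411 to 0.0563% in the other 18 libraries. For induction at 24 h, 0 of the 32 were called by edgeR's quasi-likelihood test, 1 at an unadjusted p below 0.05, and 0 by DESeq2. The set divides both groups, so the choice of these IDs gives them a wide spread inside each group. Few calls follow from that, and their absence cannot show that the set leaves the comparison untouched. The numbers of IDs called for induction at 24 h are given with and without these libraries.

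The induced 24 h libraries lay apart from everything else in the series. On the first principal component of log2 CPM, which held 34.2% of the variance over 13760 tested IDs, they stood at 66.0, 66.5 and 61.3, whereas the uninduced 24 h libraries stood at -10.4, -4.71 and -9.39. PAIR1 libraries at 24 h lay between, at 16.1, 9.45 and 11.2, and KIRA9 libraries at 24 h stood at -9.52, -9.13 and -8.57. All libraries collected at 4 h, induced or not, lay between -18.4 and -7.74. On the second component, with 8.86% of the variance, the libraries at 4 h stood at 6.78 to 19.8. The induced vehicle libraries at 24 h stood at 8.94, 9.99 and 1.87 there, and all other libraries at 24 h at -21.8 to -7.5.

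**Figure D1:**
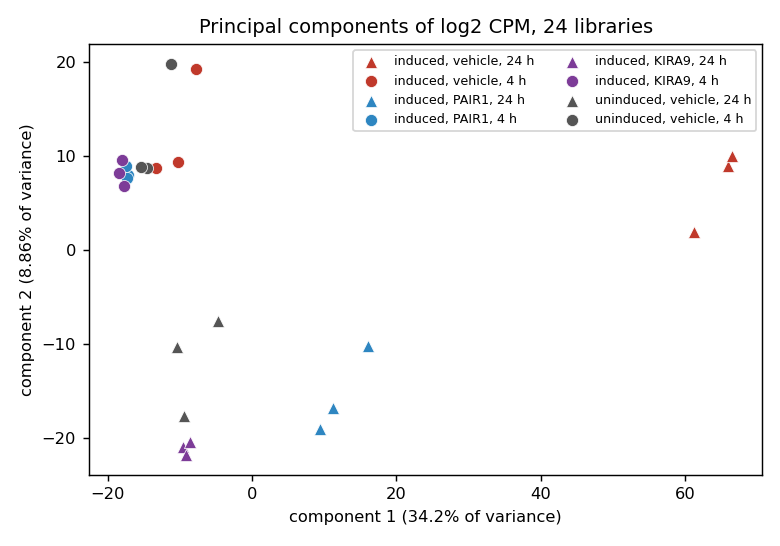
First (horizontal) and second (vertical) principal component of log2 CPM for each of the 24 libraries, coloured by treatment, with triangles for 24 h and circles for 4 h. The 3 induced vehicle libraries at 24 h stand alone at 61.3 to 66.5 on the first component.

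The same separation was seen in part of the single IDs. In 2500 IDs (18.2% of those tested) all 3 induced 24 h libraries lay above all of the other 21 libraries, and in 3113 (22.6%) they lay below all 21. KIRA9 at 24 h was at the top in 342 IDs and at the bottom in 153, and uninduced cells at 24 h in 334 and 308. PAIR1 at 24 h was at the top in 93 and at the bottom in 22. Induced cells at 4 h were at the top in 17 IDs and at the bottom in 7. These counts describe ranks, with no test.

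**Figure D2:**
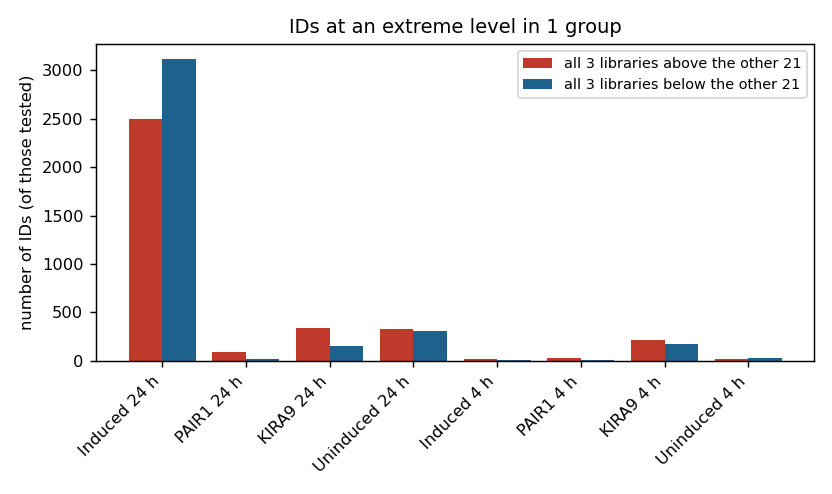
Number of tested IDs (vertical axis) for which the 3 libraries of a group (horizontal axis) all lay above, in red, or all below, in blue, the other 21 libraries. Induced vehicle cells at 24 h have 2500 and 3113 such IDs, against at most 342 in any other group.

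By edgeR's quasi-likelihood test, at an adjusted p below 0.05, 61.8% of the tested IDs were called for induction at 24 h. They comprised 4102 that were higher (29.8%) and 4401 that were lower (32.0%) in induced than in uninduced cells. For most of them the libraries did not overlap. All 3 induced libraries lay above all 3 uninduced ones in 3892 of the IDs called higher, and below in 4175 of those called lower. The same 6 libraries chose these IDs, so the separation describes the calls and lends them no further weight. The share without overlap over all tested IDs is not given here. Without the 6 libraries that stand apart, 3045 IDs were called higher and 3603 lower, with induced cells at 24 h then represented by replicate 3 alone, taken to vary as much as libraries elsewhere in the series. With membership of that set as a term in the model 4061 were higher and 4348 lower. If the times of the induced libraries are taken from the conflicting characteristic, 1904 IDs were called higher and 1883 lower.

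The falls reached further than the rises. Among the IDs called lower, 54.5% were at least 1.5-fold lower, 28.6% at least 2-fold and 4.89% at least 4-fold. Among the IDs called higher, these shares were 29.7%, 9.43% and 1.54%. At 8-fold or more the classes held 22 IDs that were higher and 32 that were lower. When the test was made against a fold of 1.5 instead of against no change, 533 IDs (3.87%) were called higher and 1728 (12.6%) lower. The quartiles of the log2 changes were -1.09 and -0.36 among the IDs called lower, and 0.27 and 0.65 among those called higher.

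The balance of rises and falls depends on the scaling. Of the called IDs 48.2% were higher with TMM scaling, 58.5% with upper-quartile scaling and 61.3% with library totals alone, which shift the median of all log2 changes by 0.10 and 0.14. With library totals alone 5572 IDs were called higher and 3512 lower. The excess among large changes stayed on the lower side: at least 2-fold, 387 IDs (2.81%) were higher and 1257 (9.14%) lower with TMM, 527 and 1056 with upper-quartile scaling, and 584 and 1003 with library totals. With the conflicting time labels and TMM, 49 IDs were at least 2-fold higher and 119 lower.

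**Figure D3:**
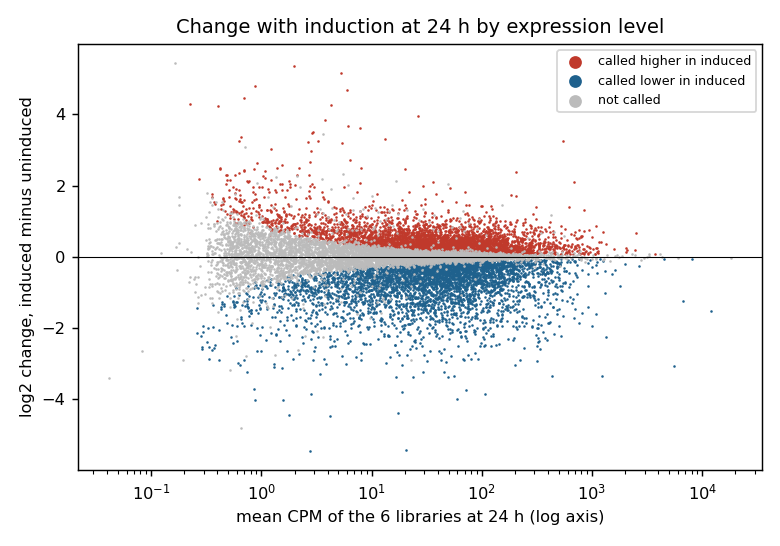
Log2 change at 24 h, induced minus uninduced (vertical axis), against the mean CPM of the 6 libraries (horizontal, log axis) for each tested ID, red where called higher, blue where called lower and grey where not called. The blue cloud extends further from 0 than the red one at most expression levels, with 1257 IDs at least 2-fold lower and 387 at least 2-fold higher.

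How the change was distributed depended on how abundant an ID was before induction. Abundance was read from the uninduced libraries at 4 h. These are outside the 24 h contrast, though they entered the shared filter, scaling and model fit. Of the 70 IDs at 1000 CPM or more there, 13 (18.6%) were called at least 2-fold lower, and 0 were at least 2-fold higher, whether called by edgeR, at an unadjusted p below 0.05 or by DESeq2. In the class of 100 to 1000 CPM, 292 of 2259 IDs (12.9%) were at least 2-fold lower and 15 (0.664%) at least 2-fold higher. In the largest class, 10 to 100 CPM with 7059 IDs, 594 (8.41%) were at least 2-fold lower and 81 (1.15%) at least 2-fold higher. At 1 to 10 CPM, 287 of 3219 IDs (8.92%) were at least 2-fold lower and 138 (4.29%) at least 2-fold higher.

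Under 1 CPM the order turned round. Of 1153 such IDs, 153 (13.3%) were called at least 2-fold higher and 71 (6.16%) at least 2-fold lower. Many IDs so low in uninduced cells passed the filter on low counts only because some group reached higher counts, so this class favours rises by its making. Complete switching was rare. Over all IDs counted, only 3 were at 1 CPM or more in every induced library and at no more than 3 counts in every uninduced one, the highest of them at a mean of 4.17 CPM in induced cells, and 2 showed the reverse, the highest at 1.63 CPM in uninduced cells.

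The make-up of the libraries at 24 h also differed between the groups, as a description. Its link to the abundance classes was not tested. The 100 IDs that were most abundant in uninduced 4 h libraries took 18.5 ± 0.17% of counts in induced cells and 20.6 ± 0.20% in uninduced cells at 24 h (SD, n = 3 each), against 20.7 ± 0.25% in induced and 20.6 ± 0.34% in uninduced cells at 4 h. Of these 100 IDs, 34 were called higher and 39 lower at 24 h, against 29.8% and 32.0% of all tested IDs, and 16 were called at least 2-fold lower, against 9.14% of all. The 10 most abundant IDs of each library took 6.73 ± 0.11% of counts in induced and 8.54 ± 0.14% in uninduced cells. Conversely, 12819.7 ± 12.6 IDs reached 1 CPM in induced libraries and 12628 ± 26.0 in uninduced ones, with CPM taken on library totals. TMM factors were 1.079 to 1.087 in induced and 0.979 to 0.994 in uninduced libraries, so TMM scaling would lower CPM in induced cells relative to uninduced ones. The number of IDs at 1 CPM was not counted with TMM scaling. In each of these measures the 3 induced and 3 uninduced libraries did not overlap, and the exact two-sided permutation p was 0.1, the smallest that 3 against 3 libraries allow (0.1 also after adjustment over 4 measures, the last being the share of the 100 most abundant IDs of each library, at 19.5 ± 0.17% in induced and 20.7 ± 0.18% in uninduced cells). With the conflicting time labels the differences were 0.18 percentage points for the 100 IDs fixed at 4 h, -0.0644 for the top 10, 0.0640 for the top 100 and -55.3 IDs at 1 CPM.

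The IDs called at least 2-fold lower held 5.77 ± 0.041% of counts in induced and 15.8 ± 0.58% in uninduced cells at 24 h. In the libraries outside the contrast, which entered the shared model fit, their share at 24 h was 11.6 ± 0.017% under PAIR1 and 14.8 ± 0.030% under KIRA9, and at 4 h it was 15.3 ± 0.16% in induced and 15.7 ± 0.21% in uninduced cells. The IDs called at least 2-fold higher held 1.62 ± 0.013% in induced and 0.554 ± 0.025% in uninduced cells at 24 h, 0.980 ± 0.023% with PAIR1, 0.773 ± 0.009% with KIRA9, and 0.735 ± 0.013% in induced and 0.663 ± 0.0073% in uninduced cells at 4 h (SD, n = 3 for each group). Because both 24 h vehicle groups chose these IDs, their own difference is a description.

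One ID per direction was taken for the size of its fold change and a second for its difference in CPM. Both rules used the 24 h values, which favours a larger effect at 24 h than at 4 h. For these IDs the tests of that difference are therefore given as descriptions. ENSRNOG00000012864 showed the largest rise among IDs eligible to be named. It stood at 945, 1011 and 999 CPM in the induced libraries and at 113, 100.1 and 99.0 CPM in the uninduced ones, so the groups lay 9.48-fold apart. Lack of overlap was a condition for naming an ID. The log2 change was 3.24 ± 0.05 (SE, n = 3 each), and edgeR gave an adjusted p of 4.3e-23. Most of the difference was already there at 4 h, at 785 ± 35.0 CPM in induced and 113 ± 4.7 CPM in uninduced cells (SD, n = 3), and the induction effect was larger at 24 h by 0.45 ± 0.07 (adjusted p = 6.9e-06). PAIR1 libraries at 24 h averaged 1277 ± 62.3 CPM and KIRA9 libraries 756 ± 33.2 CPM.

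ENSRNOG00000018294, the ID of rank 8 by total count, gained the most in CPM. It stood at 3029.6, 3147 and 3121 CPM in induced libraries and at 2022, 1922 and 1899.6 CPM in uninduced libraries, a log2 change of 0.67 ± 0.02 (edgeR's adjusted p = 2.4e-17). The induced level was the one already seen at 4 h, when induced cells averaged 3052 ± 26.3 CPM and uninduced cells 3091 ± 92.2 CPM. Within induced cells the change between 4 h and 24 h was 0.02 ± 0.02 (log2, edgeR's adjusted p = 0.41), and within uninduced cells it was -0.67 ± 0.02 (adjusted p = 7.6e-15). Between these vehicle groups it was the uninduced level that differed between the times. At 24 h PAIR1 libraries averaged 3342 ± 37.5 CPM and KIRA9 libraries 3313 ± 74.5 CPM, and at 4 h PAIR1 libraries averaged 6065 ± 59.5 CPM and KIRA9 libraries 9593 ± 135 CPM.

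ENSRNOG00000004089 fell the most of the eligible IDs. It was left at 5.47, 8.74 and 6.97 CPM in induced libraries, against 131, 102 and 100.2 CPM in uninduced libraries. The log2 change was -4.00 ± 0.11 (edgeR's adjusted p = 7.5e-19), a level 15.7-fold lower in induced cells, and -0.52 with the conflicting time labels (adjusted p = 0.00015). At 4 h the values were 77.7 ± 2.26 CPM in induced and 91.8 ± 2.4 CPM in uninduced cells, which did not pass the test (log2 change -0.24 ± 0.09, adjusted p = 0.61), and the induction effect differed between the times by -3.76 ± 0.14 (adjusted p = 6.0e-16). The 24 h means under the compounds were 22.5 ± 1.28 CPM with PAIR1 and 57.5 ± 2.00 CPM with KIRA9.

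ENSRNOG00000012052, the ID of rank 2 by total count, lost the most in CPM. It stood at 6067, 6097 and 6483 CPM in induced libraries and at 14598, 18767 and 20399 CPM in uninduced libraries, where the replicates differed more among themselves than in induced cells. The log2 change was -1.53 ± 0.08 (edgeR's adjusted p = 8.8e-14), and 0.34 with the conflicting time labels (adjusted p = 0.0025, range over the alternatives with the titles' times -1.66 to -1.39). The libraries at 4 h averaged 22642 ± 1711 CPM in induced and 21654 ± 1476 CPM in uninduced cells, and those at 24 h 15889 ± 1138 CPM with PAIR1 and 17619 ± 232 CPM with KIRA9. Within uninduced cells the level also fell between 4 h and 24 h, by 0.27 ± 0.08 on the log2 scale (adjusted p = 0.012), far less than the fall by 1.87 ± 0.08 within induced cells (adjusted p = 2.9e-15).

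**Figure D4:**
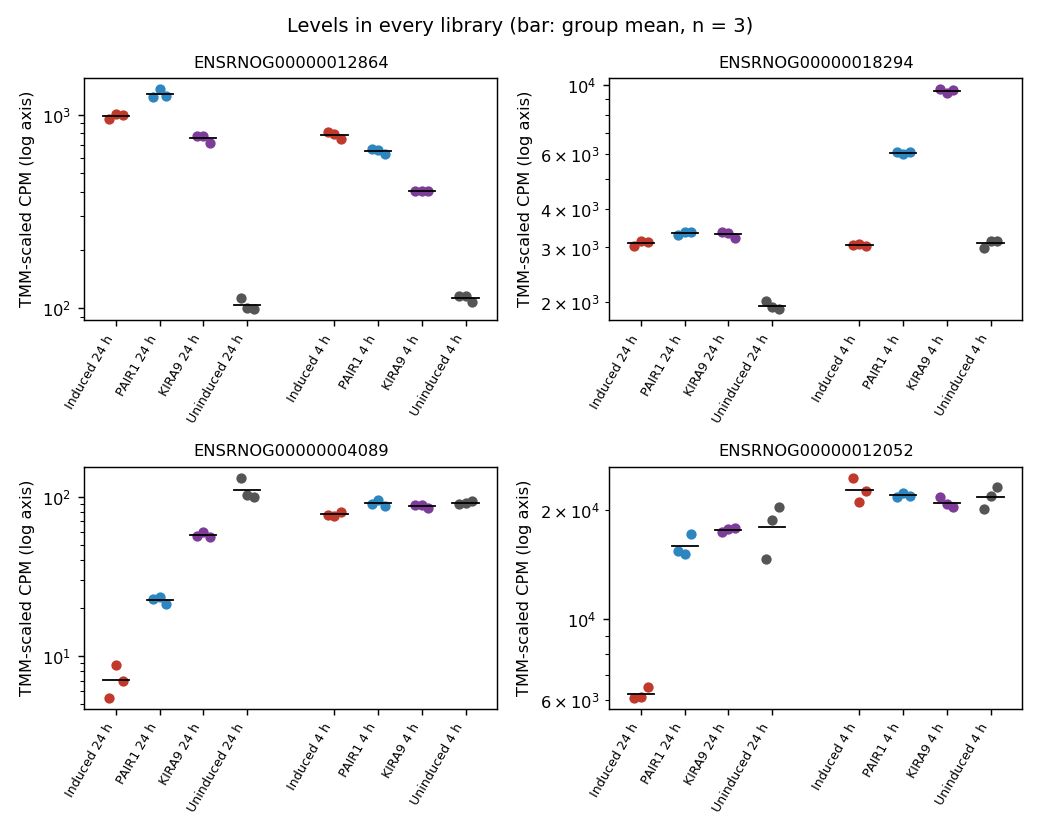
TMM-scaled CPM (vertical, log axis) of the 4 named IDs in every library, by group along the horizontal axis, with 24 h groups on the left and 4 h groups on the right of each panel; points are libraries and bars are means of 3. ENSRNOG00000018294 stands at 3099 CPM in induced and 1948 CPM in uninduced cells at 24 h, against 3052 CPM in induced and 3091 CPM in uninduced cells at 4 h.

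The 12 eligible IDs with the largest rises had log2 changes of 1.82 to 3.24 and levels of 5.01 to 1119.9 CPM in induced and 0.621 to 261 CPM in uninduced cells. At 4 h their median log2 change was 0.13: ENSRNOG00000012864 stood at 2.79 and the others between -0.48 and 0.36. The 12 largest falls had log2 changes of -4.00 to -3.23, with 2.57 to 224 CPM in induced and 30.4 to 2257 CPM in uninduced cells, and log2 changes at 4 h of -0.48 to 0.01. The 6 IDs that lost the most CPM ended at 224 to 6216 CPM in induced cells, against 1585 to 17921 CPM in uninduced cells, while their log2 changes at 4 h lay between -0.09 and 0.06. All of these IDs were chosen by their 24 h values, which favours smaller changes at 4 h.

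Set beside the same comparison at 4 h, which shares no library with it, the changes at 24 h were mostly small at the earlier time. The induction effect differed between the times in 6918 IDs (50.3% of those tested) by edgeR's test of the interaction. With TMM scaling it was more positive at 24 h in 3094 IDs (22.5%), of which 308 by at least 1 log2 unit, and more negative in 3824 (27.8%), of which 1166 by at least 1 log2 unit. Which direction held more IDs depended on the scaling. With upper-quartile scaling 4054 IDs were more positive and 3189 more negative, and with library totals alone 4492 and 2981. The IDs called at least 2-fold lower at 24 h had a median log2 change of -1.40 then and -0.05 at 4 h, and 379 of the 1257 (30.2%) lay above 0 at 4 h. Those called at least 2-fold higher had a median of 1.29 at 24 h and 0.04 at 4 h, and 223 of the 387 (57.6%) lay above 0 at 4 h. Over all tested IDs 51.0% lay above 0 at 4 h. The 24 h values chose both 2-fold classes, so their 24 h medians lie beyond 1 log2 unit by definition. That choice also favours smaller changes at 4 h. Across the 13760 IDs, which are not independent replicates, the log2 changes at both times correlated with Pearson's r = 0.10 and Spearman's rho = 0.155.

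**Figure D5:**
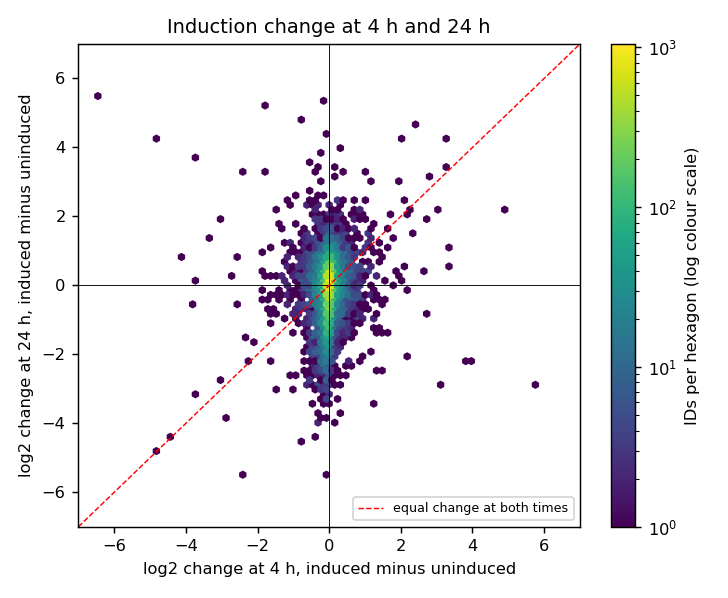
Log2 change with induction at 24 h (vertical axis) against that at 4 h (horizontal axis), induced minus uninduced, over all tested IDs, coloured by the number of IDs per hexagon on a log scale. IDs spread along the vertical axis and not along the dashed line of equal change, with r = 0.10.

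Because uninduced cells also changed between 4 h and 24 h, as ENSRNOG00000018294 showed, each 24 h group was placed against the mean of the 6 vehicle libraries at 4 h. Of the IDs called lower, the induced group lay further from the 4 h level in 3807 (86.5%) and the uninduced group in 594 (13.5%). Of the IDs called higher, the induced group lay further in 3344 (81.5%) and the uninduced group in 758 (18.5%). Over all tested IDs the induced group lay further in 10317 of 13760. In the IDs at least 2-fold lower, the median displacement from the 4 h level was -1.32 in induced and 0.09 in uninduced cells on the log2 scale, and in those at least 2-fold higher it was 1.09 in induced and -0.19 in uninduced cells. These displacements are descriptions, since the 24 h libraries that chose the IDs also enter them.

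Replicates of the induced group were as close to one another as those of other groups. The median SD of log2 CPM over tested IDs was 0.080 in induced and 0.105 in uninduced cells at 24 h, the second being the widest of the 8 groups, which otherwise ran from 0.080 to 0.085. Between replicates, chi-square divided by its degrees of freedom was 4.11 to 9.75 in induced and 10.8 to 19.6 in uninduced cells, so no pair agreed within sampling noise.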

How the data were processed

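The authors deposited raw read counts per Ensembl gene ID, without normalization. Poly(A) RNA was selected and made into libraries with NEBNext Ultra II reagents, per the labels' protocols. Per the submitters' processing notes, HISAT2 and HTSeq were used (versions and settings not given in the sources used here). Genome build, annotation and strandedness are not given either, so overlapping, antisense or near-identical genes may share reads.

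IDs were kept with filterByExpr at a minimum count of 10 (13760 kept, 12929 dropped, 6523 of these without a count). One model with a mean for each of 8 groups was fitted to all 24 libraries with edgeR 4.0.16 in R 4.3.3, with TMM scaling, quasi-likelihood tests and Benjamini-Hochberg adjustment over 13760 IDs. DESeq2 1.42.0 was an alternative. The SE of a log2 change is the change divided by the square root of its F statistic. CPM of single IDs and group means are TMM-scaled. Shares of counts use the raw totals. The procedure was tested on simulated data in which few IDs changed, in equal numbers up and down. In the real data most tested IDs were called, so the simulation does not test the scaling under such conditions. Nothing in the labels says that replicates came from separate cultures, so p-values reflect the spread among these samples alone, which may be technical.

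The comparison, the rules and the lists were chosen with earlier results of these data known. The 34 gene lists could not be tested without symbols, so no member is reported. IDs were eligible to be named if called, with the higher group averaging 5 CPM or more, without overlap of libraries and within a 4-fold range inside each group. The rule took the largest log2 change and the largest CPM difference in each direction, 2 IDs per direction; its condition on symbols could not be applied. The 2 tests of time within induced and within uninduced cells, the ranks over all libraries and the placement against 4 h were added after the data had been seen. Alternatives covered scaling, filters, tool, threshold, libraries fitted, time label, a replicate block and each library left out.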

Additional observations from a re-analysis of the deposited data

Results flagged for a closer look

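The effect of induction differed between 24 h and 4 h by edgeR's test of that difference, which drew attention to 6 results. With TMM scaling it was more positive at 24 h in 3094 IDs and more negative in 3824. Among the named IDs the induction effect at 24 h minus that at 4 h was 0.45 for ENSRNOG00000012864, 0.69 for ENSRNOG00000018294, -3.76 for ENSRNOG00000004089 and -1.59 for ENSRNOG00000012052, on the log2 scale. The named IDs were chosen by their 24 h values, which favours such a difference. For ENSRNOG00000018294 induced cells stood at 3099 CPM at 24 h and 3052 CPM at 4 h, and uninduced cells at 1948 CPM at 24 h and 3091 CPM at 4 h.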

How the results depend on the processing

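The numbers of IDs called higher (4102) and lower (4401) at 24 h, and of IDs with a more positive (3094) or more negative (3824) effect at 24 h than at 4 h, stayed within 1.5 times under other scalings, other filters on low counts, DESeq2, an adjusted p below 0.01, a fit of the compared groups alone and the removal of the libraries that stand apart. Within that range the larger direction changed with the scaling. The effect at 24 h was more positive than at 4 h in 4054 IDs and more negative in 3189 with upper-quartile scaling. With library totals alone these numbers were 4492 and 2981. Tested against a fold of 1.5, 533 IDs were called higher and 1728 lower. With the times of the induced libraries swapped, as their time characteristic has them, 1904 were higher and 1883 lower, ENSRNOG00000012052 had a log2 change of 0.34 (adjusted p = 0.0025 in edgeR's test), the share of the 10 most abundant IDs differed by -0.0644 percentage points, that of the 100 most abundant by 0.0640, that of the 100 IDs most abundant in uninduced 4 h libraries by 0.18, and the number of IDs at 1 CPM by -55.3. With any 1 library left out, 3708 to 3925 IDs were called higher and 4162 to 4271 lower, and 2843 to 3068 were more positive and 3663 to 3766 more negative. The same removals moved the differences in share to between -1.88 and -1.74 for the 10 most abundant IDs, -1.28 and -1.11 for the 100 most abundant and -2.11 and -1.91 for the 100 most abundant in uninduced 4 h libraries, and that in IDs at 1 CPM to between 184 and 207. With library totals alone 584 IDs were at least 2-fold higher, against 387 with TMM. With the compared groups fitted alone, edgeR's adjusted p for induction at 24 h was larger for the named IDs than in the shared fit. It was 2.4e-09 for ENSRNOG00000012864, 1.4e-07 for ENSRNOG00000018294, 1.5e-07 for ENSRNOG00000004089 and 2.3e-06 for ENSRNOG00000012052. For replicates that share a number, deviations in induced and uninduced cells correlated at -0.08, 0.11 and 0.16. Of the 3 numbers, 2 correlated best with their own. With 3 replicates a group, this check cannot settle whether replicates that share a number are paired. With a replicate block 4115 IDs were called higher and 4407 lower, and 3106 and 3813 in the comparison of times. Depth limits statements on IDs near 3 counts, of which a count of 0 cannot show absence.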
